A study of Rattus norvegicus with 9 samples.

Results

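Matrix metalloproteinases and their tissue inhibitors were followed in the rat uterus across 3 conditions. The 10 genes described are Mmp2, Mmp3, Mmp7, Mmp9, Mmp11, Mmp14, Mmp23, Timp1, Timp2 and Timp3, taken by gene symbol from the platform annotation, which gave them 19 probe sets. Of these genes, 8 were among the 10973 genes tested; Mmp3 and Mmp9 were too dim on the arrays to be tested. Where a gene had several probe sets, the brightest on average was used for it, and the other probe sets that passed the filter are given beside it. Uterine tissue of female rats was hybridised to Affymetrix arrays, 9 in all and 3 per condition. Control rats (arrays 41, 42 and 43) were untreated. Model rats (21, 22 and 23) were injected with pregnant mare serum gonadotropin, 0.5 U per rat, followed after 48 h by human chorionic gonadotropin, a sequence that induces ovulation. Treatment rats (31, 32 and 33) had the same injections together with electroacupuncture at the points Guanyuan and Sanyinjiao, in sessions of 15 min on 7 days before the induction and further during it. The labels give no strain, age or stage of the oestrous cycle, and do not say whether each array came from its own animal among the 18 rats, 6 per group. The spread that the p-values rest on is thus that of the arrays, and may be partly technical.

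Matrix metalloproteinases are zinc enzymes, secreted or anchored in the membrane, that cut collagens, laminins, proteoglycans and cell surface proteins. They are made as inactive proenzymes and are held in check by the tissue inhibitors of metalloproteinases (TIMPs), which bind the active site. In the uterus they take part in the turnover of matrix during the cycle, at implantation and after birth, with matrilysin (Mmp7) typical of the epithelium and Mmp2, Mmp11, Mmp14 and the TIMPs largely of the stroma.

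Promoter sequences are shown for Mmp7, Timp1 and Timp2, the members called when control 43 was left out, and for Mmp3, which shares motifs with Mmp7 but lay at the bottom of the intensity range. They are the 150 bases before the start site that RefSeq gives on build GRCr8, 5' to 3' on the strand of the gene. Capitals mark matches on either strand. The AP-1 motif was searched as TGANTCA. The TATA box was searched as TATAAA. The GC box was searched as GGGCGG. A match describes letters and is not evidence of binding.
Mmp7: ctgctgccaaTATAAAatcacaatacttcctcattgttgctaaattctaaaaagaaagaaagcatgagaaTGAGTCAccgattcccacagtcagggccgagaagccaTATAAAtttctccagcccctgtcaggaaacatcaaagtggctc
Mmp3: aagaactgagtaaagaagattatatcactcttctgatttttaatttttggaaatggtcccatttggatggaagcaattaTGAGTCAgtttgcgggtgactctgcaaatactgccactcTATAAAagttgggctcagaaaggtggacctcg
Timp1: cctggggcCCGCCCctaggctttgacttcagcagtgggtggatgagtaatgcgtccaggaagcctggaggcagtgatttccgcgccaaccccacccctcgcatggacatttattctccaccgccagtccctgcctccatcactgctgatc
Timp2: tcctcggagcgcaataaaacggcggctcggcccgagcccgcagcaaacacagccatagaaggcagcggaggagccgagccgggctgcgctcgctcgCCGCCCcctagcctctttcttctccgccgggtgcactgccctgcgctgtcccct
The windows are chr8:13132893-13133042 on the plus strand for Mmp7, chr8:12925131-12925280 on the plus strand for Mmp3, chrX:3771123-3771272 on the minus strand for Timp1 and chr10:104089215-104089364 on the minus strand for Timp2. Those of Mmp7 and Timp2 lie just outside the annotated gene. The start sites used for Timp1 and Mmp3 are inside the annotated range of the gene, so these windows overlap the gene as annotated. Mmp7 held an AP-1 match starting 80 bases and a TATA box 43 bases before its start site, and Mmp3 held them at 71 and 32 bases. Timp1, Timp2, Timp3, Mmp11 and Mmp23 held at least 1 GC box and neither of the other motifs within 250 bases. Of 33469 RefSeq promoters, 6.34% held the AP-1 letters, 12.9% the TATA letters and 30.5% the GC box letters in the same 250 bases. Of the 10 members, 7 had an entry in the promoter table.

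Values are the deposited normalized intensities, and differences are on the scale of log2(intensity + 16), which understates changes of dim genes. Levels of different genes cannot be compared on these arrays. Control 43 differed from controls 41 and 42. Across probe sets it correlated at 0.9446 with control 41 and 0.9594 with control 42, whereas it correlated at 0.985 with model 21. C3, a complement gene that oestrogen induces in the rat uterus, measured 13.2 in control 43 against 5116 and 4301 in controls 41 and 42. An induced array was low in C3 as well: model 21 measured 115.9, against 1580.5 and 1732.6 in models 22 and 23. Calls of the members are given with and without control 43. It was singled out for its values, and without it only controls 41 and 42 remain. The adjusted p-values without control 43 thus leave out the spread that it adds among the controls. Array medians were 23.5 to 23.96, and no pair of arrays shared more than 0.437% of exactly equal values.

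None of the 8 tested members passed an adjusted p of 0.05 in any of the 4 comparisons by limma (Benjamini-Hochberg over all genes). In model against control rats, 0 of 8 were called, where 0.0273% of all genes were, and 3 had an unadjusted p under 0.05, where 12.4% of all genes did. In treatment against control rats, 0 of 8 were called, where 0.51% of all genes were, and 2 had an unadjusted p under 0.05, where 17.4% of all genes did. In treatment against model rats, 0 of 8 were called, where 0% of all genes were, and 5 had an unadjusted p under 0.05, where 14.7% of all genes did. With the model and treatment arrays combined as induced, 0 of 8 were called against control, where 0.574% of all genes were, and 3 had an unadjusted p under 0.05, where 15.3% of all genes did. Groups did not overlap for 3 of 8 members in model against control (14.5% of all genes), 2 in treatment against control (23.3%), 4 in treatment against model (28%) and 2 in induced against control (6.26%). The comparisons with control share the same control arrays. Without control 43 more was called. Timp1 and Timp2 then passed in model against control (2 of 8, where 12.5% of all genes passed). Mmp7, Timp1 and Timp2 passed in treatment against control (3 of 8, where 6.55% of all genes passed) and in induced against control (3 of 8, where 11.3% of all genes passed). In treatment against model it stayed at 0 of 8, where 0% of all genes passed. All 8 tested members lay above the filter threshold on all 9 arrays, so none had entered the test through 1 group alone.

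**Figure D1:**
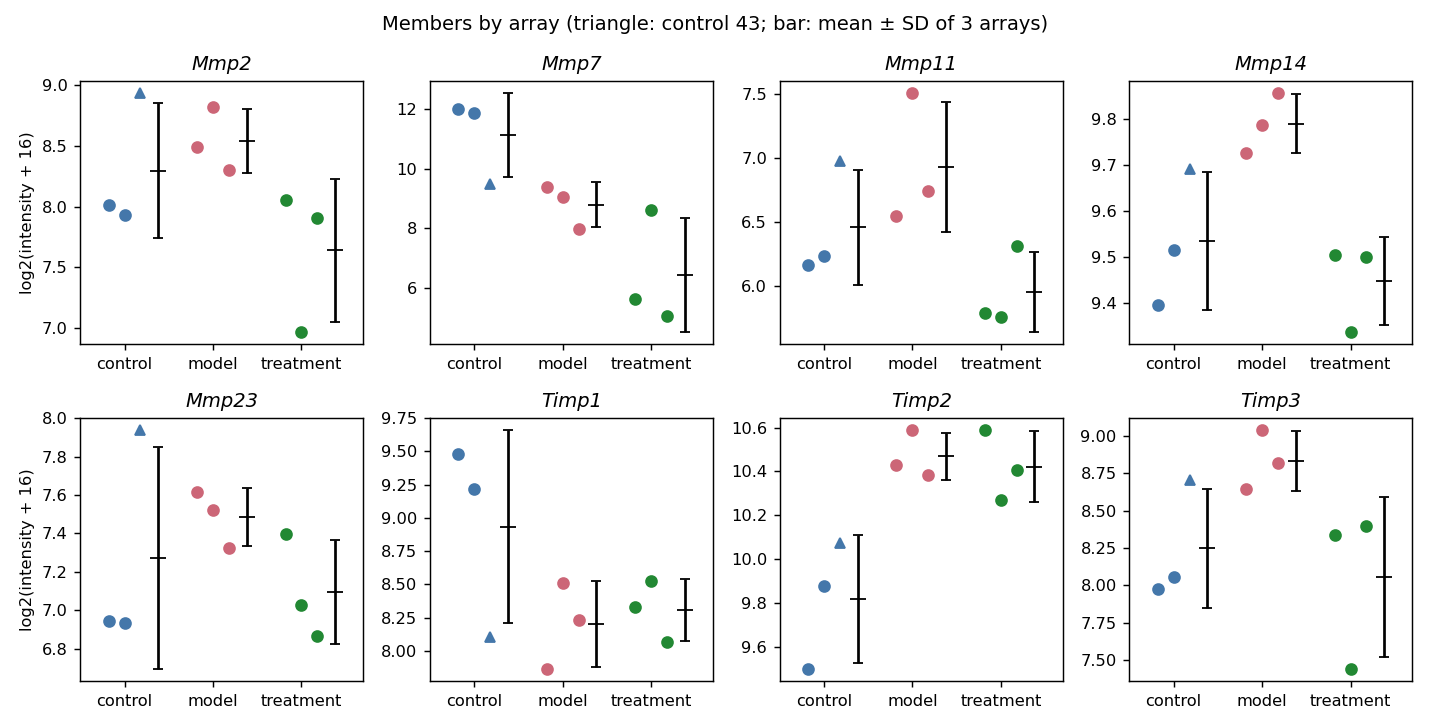
Log2(intensity + 16) of the 8 tested members (1 panel per gene, each with its own vertical scale) in control, model and treatment arrays. Points are arrays, the triangle is control 43, and the bar beside each group is the mean ± SD of 3 arrays; Mmp7 is highest in controls 41 and 42, at 12.01 and 11.89, and lowest in treatment arrays 31 and 33, at 5.61 and 5.04.

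Mmp7 encodes matrilysin, a small secreted enzyme without the hemopexin domain of most of the family, and showed the widest range of the members. Its intensity was 4111, 3779 and 706 in controls 41, 42 and 43. It was 656, 511 and 234 in model arrays 21, 22 and 23, and 32.9, 378 and 17.0 in treatment arrays 31, 32 and 33. Each of the 6 induced arrays thus lay below each of the 3 controls, although for control 43 by a small margin (706 against 656 in model 21). The treatment and model arrays overlapped through treatment 32. Induced arrays lay wholly below the controls in this way for 3.68% of all genes. Mean log2 levels were 11.13 ± 1.42 in control, 8.80 ± 0.74 in model and 6.43 ± 1.92 in treatment arrays (SD, n = 3). The log2 difference was -2.33 (SE 1.003, adjusted p = 0.396) in model against control and -4.71 (SE 1.003, adjusted p = 0.0962) in treatment against control. On the scale of intensity + 16 the latter corresponded to a 26.1-fold lower mean level in treatment rats. With the induced arrays together it was -3.52 (SE 0.87, 95% interval -5.51 to -1.53, adjusted p = 0.133). Without control 43 the difference was -5.53 in treatment against control (adjusted p = 0.0166) and -4.34 in induced against control (adjusted p = 0.0195), both called, and -3.15 in model against control (adjusted p = 0.0696).

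Treatment rats also had less Mmp7 signal than model rats on average, by a log2 difference of -2.37 (SE 1.003, adjusted p = 0.332), with treatment 32 inside the range of the model arrays. Without treatment 32 this difference was -3.47 (adjusted p = 0.655). The signal in treatment 33 was close to the filter threshold of its array, 15.8, so the size of the difference depends on the amount added before log2. Adding 1 or 64 gave -5.18 or -3.93 in treatment against control. All of these values come from 1 probe set.

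Markers of the uterine epithelium, where Mmp7 is typically made, were on average highest in controls 41 and 42, although Cldn3 and Cldn4 were highest in control 43. All 12 epithelial markers of the list were measured on the arrays and none was at 0. Their summed intensity was 4674 to 19840 in control, 3555 to 4711 in model and 4082 to 6358 in treatment arrays. Averaged as log2 differences from the mean of the 9 arrays, they stood at 1.64 and 1.20 in controls 41 and 42 and at -0.57 in control 43. Model arrays ranged from -0.78 to -0.30. Treatment arrays stood at -0.57, 0.03 and -0.04 in 31, 32 and 33. All 12 markers had a lower mean in induced than control arrays, but the groups overlapped for all except Epcam and Prom1. Induced arrays lay wholly below the controls for 3.68% of all genes. By limma Prom1, which encodes the membrane protein prominin, passed (-2.45, adjusted p = 0.0477), where 0.574% of all genes did. Between treatment and model, 9 of the 12 had a higher mean in treatment, the opposite sign to Mmp7. Cldn3 (-0.89), Cldn4 (-0.70) and Prom1 (-0.20) were lower, as Mmp7 was. By limma 0 of the 12 were called and 2 had an unadjusted p under 0.05, where 0% and 14.7% of all genes did. The part of these markers in the Mmp7 difference was not tested, and in bulk tissue fewer cells of a type and less RNA per cell cannot be told apart.

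Among the inhibitors, Timp2 was the member with the clearest separation of induced and control arrays. TIMP2 inhibits metalloproteinases and also docks the proenzyme of MMP2 onto MMP14 at the cell surface, where it is activated. Timp2 intensity was 707, 926 and 1061 in controls 41, 42 and 43, and 1364, 1526 and 1321 in model arrays 21, 22 and 23. In treatment arrays 31, 32 and 33 it was 1524, 1217 and 1343. All 6 induced arrays lay above all 3 controls, as did 2.58% of all genes in that direction, whereas model and treatment arrays covered the same range. Mean log2 levels were 9.82 ± 0.29, 10.47 ± 0.11 and 10.42 ± 0.16 in control, model and treatment arrays (SD, n = 3). The log2 difference was 0.65 (SE 0.16, adjusted p = 0.208) in model against control, 0.60 (SE 0.16, adjusted p = 0.125) in treatment against control and 0.63 (SE 0.13, adjusted p = 0.103) with the induced arrays together, a 1.55-fold higher level. Without control 43 these were 0.78 (adjusted p = 0.018), 0.73 (0.0273) and 0.76 (0.0126), and all were called. Between treatment and model the difference was -0.05, with a 95% interval of -0.40 to 0.31.

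A second Timp2 probe set, with intensities of only 21.5 to 33.5, did not show the same pattern. It differed by 0.01 in model against control and by 0.23 in treatment against control (adjusted p = 0.959 and 0.23, p-values adjusted over all 19326 kept probe sets). The Timp2 values above therefore rest on the brighter probe set. Smooth muscle markers were also higher in the induced arrays. All 10 smooth muscle markers were measured, and all 10 had positive differences in induced against control, with a median of 0.44. By limma 0 were called and 5 had an unadjusted p under 0.05, where 0.574% and 15.3% of all genes did. Their summed intensity was 13530 to 21760 in control, 21530 to 25470 in model and 20680 to 25390 in treatment arrays, and their part in the Timp2 difference was not tested.

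Timp1 encodes an inducible inhibitor that acts on most secreted metalloproteinases and weakly on membrane-bound ones. Its intensity was 697, 580.0 and 259.8 in controls 41, 42 and 43, and 217, 348 and 285 in model arrays 21, 22 and 23. In treatment arrays 31, 32 and 33 it was 305, 353 and 252. Controls 41 and 42 lay above every induced array, but control 43 lay within the induced range, so the groups overlapped. The log2 difference was -0.73 (SE 0.34, adjusted p = 0.418) in model against control, -0.63 (SE 0.34, adjusted p = 0.37) in treatment against control and -0.68 (SE 0.29, adjusted p = 0.324) with the induced arrays together. Without control 43 these were -1.15 (adjusted p = 0.0167), -1.04 (0.0273) and -1.09 (0.0119), and all were called. The last corresponds to a 2.14-fold lower level. Against model, the treatment arrays differed by 0.10, with a 95% interval of -0.67 to 0.88. Among the controls, Timp1 and the average of the epithelial markers were both high in 41 and 42 and low in 43. Cldn3 and Cldn4 of that list went the other way. They measured 513, 459 and 1047, and 83.5, 47.6 and 134, in controls 41, 42 and 43. The part of the epithelial markers in the Timp1 difference was not tested.

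**Figure D2:**
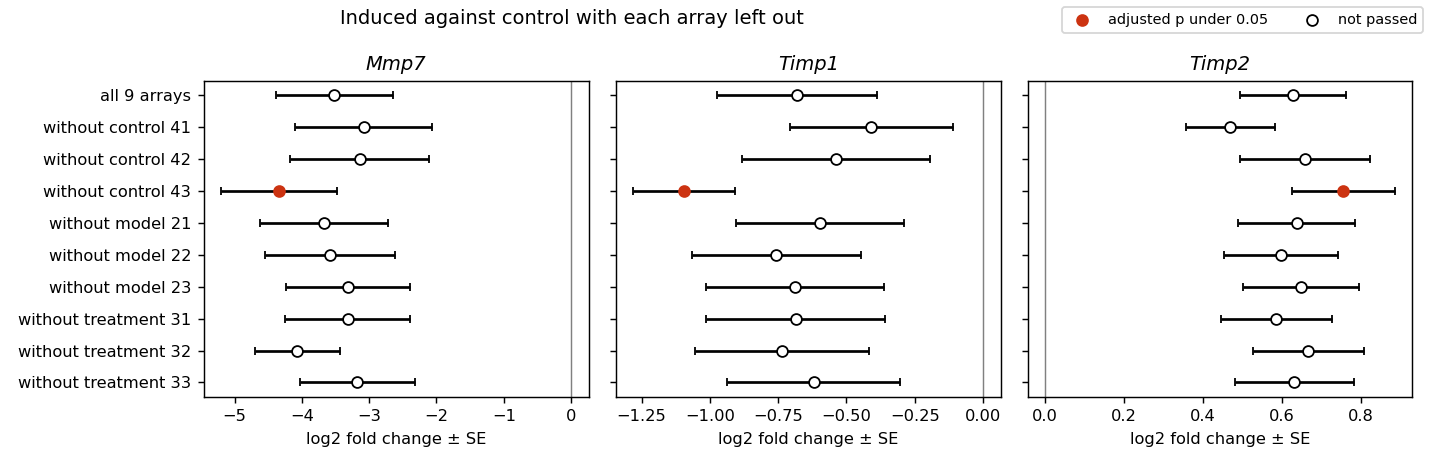
Log2 fold change ± SE of Mmp7, Timp1 and Timp2 in induced against control arrays, with all 9 arrays and with each array left out in turn; filled red points passed an adjusted p of 0.05 and open points did not. Only the fit without control 43 passed for each of the 3 genes, at -4.34, -1.09 and 0.76.

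Timp3 encodes the inhibitor that stays bound to the matrix and also restrains ADAM proteases. Its main probe set measured 236, 250.3 and 402 in controls 41, 42 and 43, 383, 511 and 435 in model arrays 21, 22 and 23, and 307, 158 and 322 in treatment arrays 31, 32 and 33. Every treatment array lay below every model array, and control 43 lay with the model arrays. Timp3 was lower in treatment than model by a log2 difference of -0.78 (SE 0.29, adjusted p = 0.302). It was 0.59 (SE 0.29, adjusted p = 0.432) higher in model than control, and -0.19 (SE 0.29, adjusted p = 0.772) in treatment against control. A second probe set, at 166 to 445, gave -0.75 in treatment against model (adjusted p = 0.262) and 0.47 in model against control (0.422). A dimmer one, at 15.3 to 43.5, gave the smaller values of -0.28 (adjusted p = 0.49) and 0.09 (0.861). Without control 43, model against control gave 0.82 (adjusted p = 0.0902) and treatment against control turned to 0.04 (0.943).

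Among the enzymes of the stroma, Mmp2 encodes gelatinase A, which cleaves denatured collagen and basement membrane collagen. Mmp2 measured 243, 228 and 473 in controls 41, 42 and 43, 344, 437 and 299 in model arrays 21, 22 and 23, and 249, 109 and 224 in treatment arrays 31, 32 and 33. Treatment arrays lay below all model arrays, treatment 32 lowest, and control 43 was the highest of all 9 arrays. The log2 difference was -0.90 (SE 0.35, adjusted p = 0.317) in treatment against model, 0.24 (SE 0.35, adjusted p = 0.759) in model against control and -0.65 (SE 0.35, adjusted p = 0.364) in treatment against control. Without control 43, model against control gave 0.56 (adjusted p = 0.253) and treatment against control -0.33 (0.54), with induced against control turning from -0.20 to 0.12. Another Mmp2 probe set lay at 7.2 to 9.84 on every array, below the filter threshold.

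Mmp14 encodes the membrane-anchored collagenase MT1-MMP, which activates the MMP2 proenzyme. Mmp14 measured 657, 716 and 812 in controls 41, 42 and 43, 831, 868 and 911 in model arrays 21, 22 and 23, and 710.5, 631 and 708 in treatment arrays 31, 32 and 33. Model arrays lay above all control and all treatment arrays, although by a small margin (831 against 812 in control 43). The log2 difference was 0.26 (SE 0.10, adjusted p = 0.372) in model against control and -0.34 (SE 0.10, adjusted p = 0.286) in treatment against model. The second Mmp14 probe set, at 153 to 202, gave 0.01 and -0.09 for the same comparisons (adjusted p = 0.98 and 0.718). The separation was thus not seen in that probe set. Without control 43, model against control gave 0.34 (adjusted p = 0.0602).

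Mmp11 encodes stromelysin-3, an enzyme activated inside the cell by furin and made by stroma undergoing remodelling. It measured 56.0, 59.4 and 110.1 in controls 41, 42 and 43, 77.8, 166 and 90.9 in model arrays 21, 22 and 23, and 39.3, 38.1 and 63.6 in treatment arrays 31, 32 and 33. Treatment arrays again lay below all model arrays, and model 22 was the highest. The difference in treatment against model was -0.98 (SE 0.30, adjusted p = 0.286), and -0.69 without model 22 (adjusted p = 0.62). In model against control it was 0.47 (SE 0.30, adjusted p = 0.509), or 0.73 without control 43 (adjusted p = 0.128). In treatment against control it was -0.51 (SE 0.30, adjusted p = 0.417), or -0.25 without control 43 (0.626).

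Mmp23 encodes an unusual membrane-tethered member that is freed by cleavage and is known from ovary and testis. Its main probe set measured 107, 106 and 229.7 in controls 41, 42 and 43, 180.0, 168 and 144 in model arrays 21, 22 and 23, and 152, 114 and 101 in treatment arrays 31, 32 and 33. The groups overlapped in every comparison, since control 43 was the highest array of all and controls 41 and 42 were near the lowest. The log2 difference was 0.21 (SE 0.27, adjusted p = 0.728) in model against control and -0.39 (SE 0.27, adjusted p = 0.498) in treatment against model. Without control 43, model against control gave 0.55 (adjusted p = 0.0638), and treatment against control turned from -0.18 to 0.16 (adjusted p = 0.774 and 0.576). The other Mmp23 probe sets gave smaller differences. One, at 68.9 to 141, gave 0.18 in model against control and -0.19 in treatment against model (adjusted p = 0.735 and 0.684). The dimmest, at 20.8 to 28.2, gave -0.06 and -0.06 (adjusted p = 0.75 and 0.739), with the sign turned in model against control.

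In treatment against model, as in treatment against control, 7 of the 8 tested members had a negative difference. Between treatment and model these were all but Timp1, with a median of -0.58 against -0.05 over all genes. Groups did not overlap for Mmp2, Mmp11, Mmp14 and Timp3, all lower in treatment, as was the case for 19.9% of all genes in that direction. Treatment 32 was the lowest of the 9 arrays for each of these 4 genes, and control 43 lay above controls 41 and 42 for each of them and for Mmp23. Without treatment 32 the differences were -0.56 for Mmp2, -0.88 for Mmp11, -0.29 for Mmp14 and -0.47 for Timp3, at adjusted p of 0.655 to 0.685. In model against control, 6 members were positive and 2 negative (median 0.25 against 0.02 over all genes). In treatment against control, 1 was positive and 7 negative (-0.35 against -0.04).

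**Figure D3:**
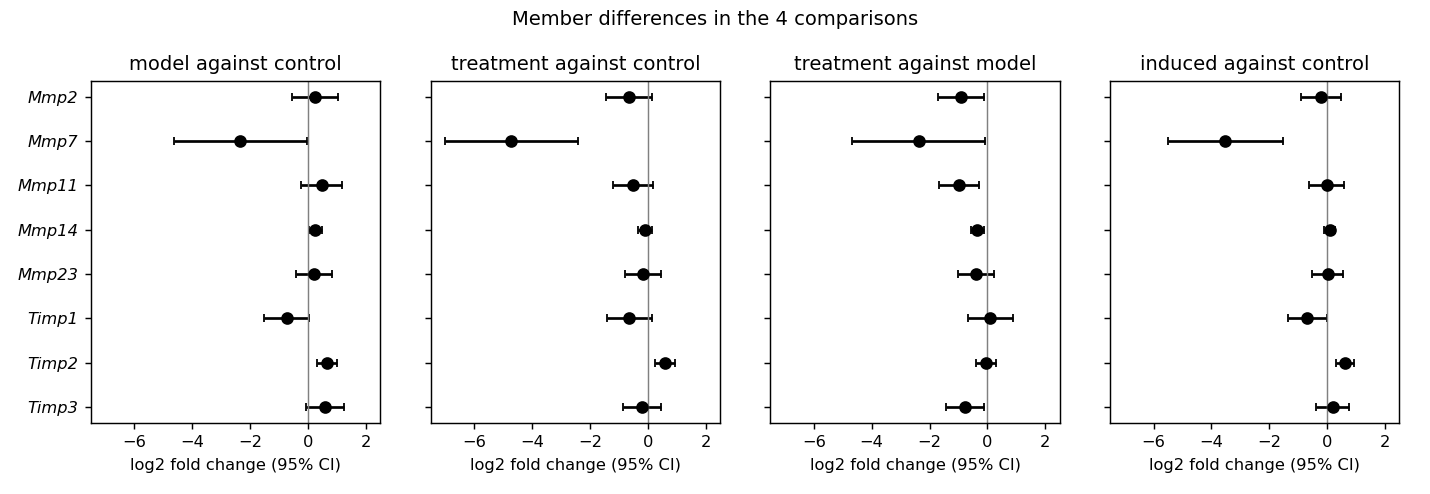
Log2 fold changes (points) with 95% intervals (bars) of the 8 tested members in the 4 comparisons, from the fit to all 9 arrays. In treatment against model, 7 of 8 points lie left of 0; Mmp7 has the widest interval, -7.00 to -2.41 in treatment against control.

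Most markers of stromal, endothelial and immune cells also had lower mean values in treatment than in model arrays, with none called. The 2 mast cell markers that passed the filter were instead higher in treatment (median 0.08). The 2 neutrophil markers that passed were lower (median -0.45). All 9 stromal fibroblast markers were measured, with a summed intensity of 7430 to 13990 in control, 10310 to 13680 in model and 7672 to 12320 in treatment arrays. As log2 differences from the mean of the 9 arrays they stood lowest in treatment 32 and control 41 (-0.46 and -0.44) and highest in control 43 and model 22 (0.43 and 0.33). In treatment 31 the stromal markers stood at 0.11, with Mmp2, Mmp11, Mmp14, Mmp23 and Timp3 at -0.11, -0.66, -0.09, 0.11 and -0.05. In model 23 the stromal markers stood at -0.10, with the same members at 0.14, 0.29, 0.27, 0.04 and 0.44. Relative to model, 8 of the 9 stromal markers were lower in treatment, with a median of -0.10. By limma 0 were called and 1 had an unadjusted p under 0.05, where 0% and 14.7% of all genes did. Of 8 endothelial markers 7 were found on the arrays and passed the filter. All 7 were lower in treatment than model, with a median of -0.67. By limma 0 were called and 1 had an unadjusted p under 0.05, against 14.7% of all genes. Their summed intensity was 598.7 to 1288 in control, 954.9 to 1103 in model and 334.8 to 909 in treatment arrays. The endothelial markers stood at -0.94 in treatment 32 and at 0.62 in control 43, where Mmp2 was at -1.19 and 0.78. Of 9 macrophage markers 8 passed the filter, and 7 of the 8 were lower in treatment than model, with a median of -0.56. Of these markers 0 had an unadjusted p under 0.05, against 14.7% of all genes. Their summed intensity was 1083 to 2713 in control, 759.3 to 2996 in model and 933.4 to 1247 in treatment arrays, with model 22 the highest and model 21 the lowest. The macrophage markers stood at -0.41 in control 43 and -0.70 in model 21, where Mmp2 was at 0.78 and 0.335. In model 22 both were high, the macrophage markers at 0.90 and Mmp2 at 0.66. Of 10 lymphocyte and natural killer cell markers 9 were found on the arrays and 5 passed the filter. All 5 were lower in treatment than model, with a median of -0.54 and 2 at an unadjusted p under 0.05, against 14.7% of all genes. Their summed intensity was 90.08 to 128.4 in control, 98.17 to 316.4 in model and 67.38 to 113.3 in treatment arrays. None of these markers was at 0, and their part in the differences of Mmp2, Mmp11, Mmp14, Mmp23 and Timp3 was not tested.

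**Figure D4:**
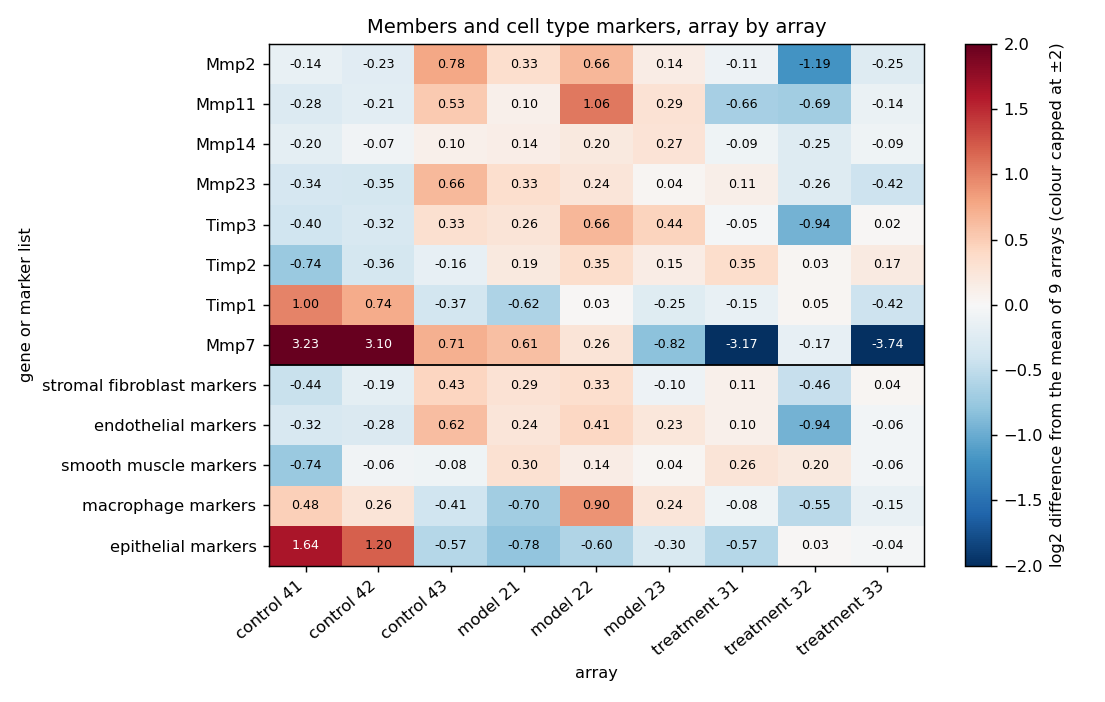
Log2 difference from the mean of the 9 arrays for the 8 tested members (upper rows) and for the mean of 5 cell type marker lists (lower rows), with arrays in columns; red is above and blue below the mean, and colours are capped at ±2. Mmp2 and Timp3 share their lowest array, treatment 32, with the stromal and endothelial markers, and Mmp7 and Timp1 share their highest, controls 41 and 42, with the epithelial markers.

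Mmp3 encodes stromelysin-1, a broad protease of stroma, and Mmp9 encodes gelatinase B, which neutrophils carry and release. Mmp3 intensity was 4.14 to 7.62 over the 9 arrays, and the 2 Mmp9 probe sets gave 4.38 to 6.95 and 4.47 to 5.49. All lay below the 40th percentile of their array, a threshold of 15.2 to 16.2, on every array. The background of these intensities is unknown, so the values set no bound on expression, and neither gene was tested. The highest Mmp3 value was that of control 43, with the others at or below 5.57. Neutrophil markers were dim as well: of 9, 6 were found on the arrays. Of these, 2 passed the filter, S100a8 and S100a9, and Csf3r, Camp, Cxcr2 and Ncf1 did not.

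Beyond these 10 genes, 5 lists of 100 genes that act with them were examined, of which 71 were tested. None of the 71 passed in any comparison by limma with all arrays, and 13, 13, 8 and 14 had an unadjusted p under 0.05 in model against control, treatment against control, treatment against model and induced against control, where 12.4%, 17.4%, 14.7% and 15.3% of all genes did. Without control 43, 11 passed in model against control (5 higher, 6 lower), where 12.5% of all genes passed. In treatment against control 5 passed (3 higher, 2 lower), where 6.55% of all genes did, and in induced against control 9 passed (5 higher, 4 lower), where 11.3% did. In treatment against model 0 passed, where 0% of all genes did. These shares of the 71 genes were near those of all genes, so the counts show nothing particular to the lists.

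Of the other metalloproteinases with Timp4 and Reck, 7 of 19 were tested and 1 had an unadjusted p under 0.05 in induced against control, in the direction of lower. Mmp15, which encodes the membrane enzyme MT2-MMP, measured 56.4, 43.8 and 65.1 in controls 41, 42 and 43, 53.4, 50.7 and 45.5 in model arrays 21, 22 and 23, and 32.3, 25.0 and 38.2 in treatment arrays 31, 32 and 33. Treatment arrays lay below all others, by -0.57 against control (adjusted p = 0.122) and -0.47 against model (adjusted p = 0.286). Reck encodes a membrane-anchored inhibitor of metalloproteinases. It measured 199, 186 and 305 in controls 41, 42 and 43, 266, 285 and 189 in model arrays 21, 22 and 23, and 152, 79.3 and 173 in treatment arrays 31, 32 and 33. Treatment arrays were again the lowest, by -0.84 against model (adjusted p = 0.286) and -0.74 against control (0.252), and treatment 32 was lowest of all. Mmp24 and Timp4 differed by 0.17 and 0.10 in induced against control (adjusted p = 0.554 and 0.527). Mmp8, Mmp10, Mmp13, Mmp19 and Mmp28 lay below the filter, with intensities of 2.99 to 14.3.

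In the list of ADAM and ADAMTS proteases, relatives that shed surface proteins or cut proteoglycans, 14 of 19 were tested and 4 had an unadjusted p under 0.05 in induced against control, 2 in each direction. Adamts1, a protease of versican that progesterone and ovulation induce in the ovary, measured 383, 508 and 449 in controls 41, 42 and 43. It measured 662 to 952 in model and 707 to 824 in treatment arrays, so that all induced arrays lay above all controls (0.75, adjusted p = 0.0619). Without control 43 it passed (0.76, adjusted p = 0.0258). Adam15 (0.31, adjusted p = 0.131), Adamts15 (-0.59, 0.126) and Adamts8 (-1.51, 0.204) ranked next. Adamts8 and Adam15 passed without control 43, at -2.13 (adjusted p = 0.00986) and 0.35 (0.0434).

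Of the genes that activate metalloproteinases or clear them, 13 of 18 were tested and 2 had an unadjusted p under 0.05 in induced against control, 1 in each direction. Plau encodes urokinase, which makes the plasmin that activates several proenzymes, and differed by 1.21 (adjusted p = 0.262). It measured 86.5, 39.5 and 62.2 in controls 41, 42 and 43, 72.2, 108 and 387 in model arrays 21, 22 and 23, and 138, 172 and 217 in treatment arrays 31, 32 and 33. Model 23 was the highest and model 21 lay among the controls. Plaur, the urokinase receptor gene, differed by -0.35 (adjusted p = 0.313) and passed without control 43 (-0.51, adjusted p = 0.0414), at intensities of only 7.51 to 31.7. Lrp1, which encodes the receptor that takes up proteases bound to their inhibitors, differed by 0.44 in model against control (adjusted p = 0.407) and passed there without control 43 (0.64, adjusted p = 0.0432). Thbs2, a thrombospondin gene whose product helps clear MMP2, and A2m, which encodes a broad protease trap, differed by -0.30 and -0.48 (adjusted p = 0.359 and 0.503).

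Of the matrix substrates of these enzymes, 21 of 22 were tested and 0 passed in induced against control by limma. Of their differences 15 were positive and 6 negative (median 0.22 against -0.0025 over all genes), and 5 had an unadjusted p under 0.05, 4 of them positive. Groups did not overlap for 1 of the 21, Bgn, where they did not overlap for 6.26% of all genes. Col1a1, Col1a2, Col3a1, Dcn and Lum of this list are also among the stromal markers. Bgn, which encodes the proteoglycan biglycan, measured 349, 534 and 631 in controls 41, 42 and 43, 844 to 1309 in model and 793 to 1118 in treatment arrays. All induced arrays lay above all controls, by 0.97 (SE 0.21, adjusted p = 0.107), and Bgn passed without control 43 (1.15, adjusted p = 0.0173). Nid1, a basement membrane nidogen gene, differed by 0.35 (adjusted p = 0.222) and passed without control 43 (0.47, adjusted p = 0.0393). The laminin chain gene Lamc1 differed by 0.46 (adjusted p = 0.255) and the elastin gene Eln by 0.25 (adjusted p = 0.281). In treatment against model, 17 of the 21 were negative with a median of -0.16.

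Of the transcription factors and cytokines that regulate metalloproteinase genes, 16 of 22 were tested and 2 had an unadjusted p under 0.05 in induced against control, 1 in each direction. Tgfb2, a TGF-beta ligand gene, measured 29.4, 25.5 and 88.7 in controls 41, 42 and 43, 183, 179 and 449 in model arrays 21, 22 and 23, and 256, 253 and 623 in treatment arrays 31, 32 and 33. Every induced array lay above every control. The difference was 2.40 (SE 0.44, adjusted p = 0.0619), and it passed without control 43 (2.83, adjusted p = 0.00811). Il1a, which encodes interleukin-1 alpha, an inducer of stromal metalloproteinases, separated treatment from the other groups. It measured 66.0, 45.9 and 8.88 in controls 41, 42 and 43, 11.2, 28.8 and 89.9 in model arrays 21, 22 and 23, and 175, 107 and 290 in treatment arrays 31, 32 and 33. Treatment arrays lay above all model arrays by 1.93 (SE 0.60, adjusted p = 0.286) and above all controls by 1.94 (SE 0.60, adjusted p = 0.175). Etv5, an ETS factor gene, and Jun, an AP-1 subunit gene, differed by -0.39 and 0.23 in induced against control (adjusted p = 0.317 and 0.372). Without control 43, the AP-1 subunit genes Fos (-2.47, adjusted p = 0.0495), Fosl2 (-0.50, 0.0124) and Junb (-0.71, 0.0352) passed in model against control, as did Etv5 (-0.49, 0.0379). Etv5 then also passed in treatment against control (-0.75, adjusted p = 0.0125) and induced against control (-0.62, 0.0126), and Fosl2 in induced against control (-0.40, 0.0147).

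The 3 tested genes with the pattern most like that of Mmp7, which had the largest difference of the 8 members in each comparison, were Dnaja4, Nedd8 and Bcar3. Pearson's r of their log2 values with those of Mmp7 over the 9 arrays was 0.98, 0.97 and 0.96, given as a description of genes picked as the highest of all. Dnaja4, a co-chaperone gene, measured 181 to 231 in control, 163 to 179 in model and 127 to 178 in treatment arrays, a far narrower range than that of Mmp7. Nedd8 measured only 876 to 1035 over the 9 arrays. Bcar3 was dim, at 7.02 to 33.7. It lay below the filter threshold on all treatment arrays and on models 22 and 23, and passed the filter through the controls and model 21. In all 3 genes treatment arrays 31 and 33 were the lowest and treatment 32 lay higher.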

How the data were processed

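RNA of rat uterus was measured on Affymetrix arrays, 1 per sample. The values are normalized intensities on a linear scale, deposited by the authors. The submitters' processing notes name MAS5 without settings, and no detection calls were used. The number of arrays limits the precision. Of 31099 probe sets, 57 Affymetrix controls were left out, 20826 had 1 gene symbol, 436 several and 9780 none; 20758 symbols matched RefSeq (GRCr8). The scale was log2(intensity + 16). Probe sets had to reach the 40th percentile of their array on 3 or more arrays, and each gene took its brightest kept probe set, giving 10973 genes. All 9 arrays entered 1 model (limma 3.58.1, R 4.3.3, eBayes with a variance trend, two-sided), with Benjamini-Hochberg adjustment over all genes within a comparison. The model was tested on simulated data. All members are named, with the 4 genes of smallest p in induced against control from each other list, genes called in any comparison, and the 3 genes most like the leading member. Genes named for passing without control 43 were chosen after their values were seen. The members and lists were chosen with earlier results of these data known. Figures were drawn with matplotlib 3.10.9.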

Additional observations from a re-analysis of the deposited data

How the results depend on the processing

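The settings varied were the amount added (1 or 64), quantile normalization or median centring, the filter (none, or the 60th percentile), eBayes (robust, or without the trend), only the arrays compared, averaged probe sets, a replicate block and single arrays left out. Each probe set on its own was added after seeing the data. Control 43 decided the calls: with single arrays left out, members called ranged from 0 to 2 in model against control, 0 to 3 in treatment against control, 0 to 3 in induced against control and 0 to 0 in treatment against model, and the other list genes called from 0 to 11, 0 to 5, 0 to 9 and 0 to 0, the highest counts being those without control 43. Adamts1 (0.75, adjusted p = 0.0464) was the 1 list gene called in treatment against control without model 23. The last digit of the array number, used as a replicate block, gave 1 call in each comparison with control, Tgfb2, and no call among the members; the digits share only a number, with correlations of deviations of -0.408 to 0.311. No other alternative named above called a member. Direction turned in differences of at most 0.21 in size in the main fit, the largest being Mmp23 in model against control. Mmp11 in induced against control was 0.0057 with 64 added (0.24 at most and -0.16 at least with an array left out), and Timp2 in treatment against model was 0.0837 as a mean of probe sets. On their own, dim or second probe sets turned Mmp23 in model against control (-0.0618) and induced against control (-0.0898), Timp2 in treatment against model (0.21), Mmp14 in induced against control (-0.0377) and Timp3 in induced against control (-0.0522). With an array left out, ranges spanned 0 for Mmp23 in induced against control (-0.15 to 0.35) and treatment against control (-0.34 to 0.16), Mmp2 in induced against control (-0.39 to 0.12), Timp1 (-0.0647 to 0.258) and Timp2 (-0.1302 to 0.0301) in treatment against model, and Timp3 in treatment against control (-0.36 to 0.12). Over all genes, quantile normalization moved the calls in treatment against control from 19 higher and 37 lower to 27 and 28, and in induced against control from 16 and 47 to 21 and 37. Calls over all genes in treatment against control ranged from 0 without treatment 33 to 716 without control 43.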
